A study of Mus musculus with 12 samples.

Results

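The plasminogen activation system was followed through 7 genes of BV2 cells, chosen by name with earlier results of these data known. They were the activators Plau and Plat, the activator receptor Plaur, the plasminogen receptors Plgrkt and Eno1, and the inhibitors Serpine2 and Serpinb2. All 7 were found by gene name among the 21834 protein-coding genes of the count table. BV2 cells are mouse microglia immortalized as a line. RNA was sequenced from 4 groups of 3 libraries each. Cells carrying a control shRNA were left untreated (shCtrl-CTRL) or taken through oxygen-glucose deprivation and reoxygenation (shCtrl-OGDR), a culture model of ischemia and reperfusion. Cells carrying an shRNA against Anxa2 were treated the same way (shAnxa2-CTRL and shAnxa2-OGDR). Deprivation lasted 4 h and reoxygenation 12 h per the labels, while the study's methods state a longer reoxygenation for BV2 cells. Each line was a lentivirally transduced, puromycin-selected population with 1 shRNA, so an effect of Anxa2 and an effect of that shRNA or that line cannot be told apart.

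Groups were taken from the sample titles, because the cell type and genotype fields of the labels follow the treatment and conflict with the titles. The targeted gene was checked first. Anxa2 stood at 165, 174 and 177 CPM (counts scaled to a common library size) in shCtrl-CTRL and at 251, 295 and 291 CPM in shCtrl-OGDR. With the shRNA against it, the values were 35.0, 44.4 and 41.8 CPM untreated and 18.2, 20.1 and 20.6 CPM after OGD/R (oxygen-glucose deprivation and reoxygenation), so the libraries titled shAnxa2 were the low ones in both treatments. The check bears on the line only. Which libraries of a line were treated was taken from their names and was not tested. All 10 microglia and macrophage markers on a list averaged at least 1 CPM, and their summed level lay between 1834 and 2245 CPM over the 12 libraries, lowest in shAnxa2-CTRL at 1834 to 1935 CPM. Of 4 markers each, astrocytes, neurons and fibroblasts had 0 that averaged 1 CPM, and Aqp4, Snap25, Syt1, Mog and Dcn had no count at all. The endothelial list summed to 43.2 to 58.8 CPM, nearly all of it from Vwf, while Cldn5 had at most 4 counts. The oligodendrocyte list, with Mbp at 4.24 CPM on average and Mog at 0, summed to 4.48 to 5.61 CPM in shCtrl-CTRL and 5.67 to 6.61 CPM in shCtrl-OGDR. It summed to 5.53 to 6.16 CPM in shAnxa2-CTRL and 4.08 to 4.41 CPM in shAnxa2-OGDR. These low levels moved with the groups as Plgrkt did, and their part in its result was not tested. A switch of direction between the lines was common to most changing genes, as given below. In bulk RNA, fewer cells of a type and less RNA per cell cannot be told apart. Library totals ran from 19521877 to 27288843 counts. The study's methods describe the 3 libraries of a group as biological replicates.

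Plasmin is a broad serine protease made from the circulating zymogen plasminogen. Urokinase, the product of Plau, cleaves plasminogen while held on the cell surface by its receptor, the product of Plaur, and tissue-type activator, the product of Plat, does so on fibrin and on neural cells. Serpins such as PAI-2 (Serpinb2) and protease nexin-1 (Serpine2) inhibit the activators. Plasminogen itself docks through C-terminal lysines of surface proteins, among them Plg-RKT (Plgrkt), surface alpha-enolase (Eno1) and the annexin A2-S100A10 complex. Of this complex, only Anxa2 was targeted by the knockdown.

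The start regions of Plaur and Plgrkt are shown because these genes moved in opposite directions in every comparison. They are the 250 bases before the RefSeq start in GRCm38.p6, at chr7:24462233-24462482 on the plus strand and at chr19:29361872-29362121 on the minus strand, written 5′ to 3′ in the direction of the gene. Capitals mark the AP-1 motif TGACTCA, the GC box GGGCGG and the CCAAT box on either strand.
Plaur: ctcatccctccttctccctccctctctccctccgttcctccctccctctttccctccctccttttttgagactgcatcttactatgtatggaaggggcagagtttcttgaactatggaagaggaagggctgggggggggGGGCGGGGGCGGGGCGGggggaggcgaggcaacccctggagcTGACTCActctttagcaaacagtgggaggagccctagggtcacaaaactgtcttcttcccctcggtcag
Plgrkt: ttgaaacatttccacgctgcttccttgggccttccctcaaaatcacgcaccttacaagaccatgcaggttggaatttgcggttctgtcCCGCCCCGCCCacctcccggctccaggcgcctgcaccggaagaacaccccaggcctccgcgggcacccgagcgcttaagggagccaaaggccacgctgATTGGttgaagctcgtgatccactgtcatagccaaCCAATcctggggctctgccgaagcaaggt
Plaur had the AP-1 motif once, from 69 bases before the start, and 3 adjoining GC boxes from 111, 105 and 100 bases before it, of which the last and the one before it share a base. Plgrkt had no AP-1 motif, 2 overlapping GC boxes on the opposite strand from 162 and 157 bases before the start, and CCAAT boxes on opposite strands from 64 and 29 bases before it. Over 32851 mouse start regions of the same length, 4.46% held the AP-1 motif, 32.7% a GC box and 33.8% a CCAAT box on either strand. The core of the hypoxia response element, ACGTG, was in 16.6% of these regions and in neither Plaur nor Plgrkt. A consensus site of the factor NF-kB was in 9.55% of regions and the TATA box TATAAA in 12.4%, and neither gene had either. These are matches of letters only. Of the 7 genes, 5 had a start region in the RefSeq table, and Plau and Plat had none.

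The expressed members spanned a wide range of levels. Plau (ENSMUSG00000021822) lies at chr14:20886728-20893453 on the plus strand in mm39, the build of the deposited coordinates per the submitters' processing notes. Plaur (ENSMUSG00000046223) lies at chr7:24161909-24175393, also on the plus strand. Plgrkt (ENSMUSG00000016495) lies at chr19:29325999-29344790 on the minus strand, and Eno1 (ENSMUSG00000063524) at chr4:150321178-150333336 on the plus strand. None of the 7 members overlapped another gene of the table. Per kilobase of exon, counted over all annotated transcripts, mean levels over the 12 libraries were 673 CPM per kb for Eno1, 52.5 for Plau, 12.6 for Plaur and 10.6 for Plgrkt. Among 11612 tested genes with an exon length, Eno1 ranked 40, Plau 933, Plaur 4104 and Plgrkt 4688. Eno1, the glycolytic enzyme that also serves as a surface plasminogen receptor, took 0.303% to 0.446% of all counts of a library.

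The other 3 members were at or near 0. Serpine2 (chr1:79771914-79838897, minus strand), which encodes protease nexin-1, had 0 counts in all 12 libraries. Serpinb2 (chr1:107439153-107463208, plus strand), which encodes PAI-2, had 2 counts in shCtrl-CTRL replicate 1 and 0 in the remaining libraries. Plat (chr8:23247743-23272860, plus strand) had 15 counts in all: 3 in 1 shCtrl-CTRL library, 4 and 1 in a pair of shCtrl-OGDR libraries, 7 in 1 shAnxa2-CTRL library and 0 in shAnxa2-OGDR. A count of 0 allows a level of up to 0.110 to 0.154 CPM (3 counts) depending on the library, for counting error only, so neither a change nor its absence was detectable for these genes at this depth. Without a filter on low counts, edgeR gave Plat its lowest Benjamini-Hochberg adjusted p, 0.0601, in the interaction. Plg, the gene for plasminogen itself, had 0 counts in every library. At the RNA level, the cells therefore held the urokinase arm and surface receptors, with Plat, Serpinb2, Serpine2 and Plg at or near the limit of detection.

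**Figure D1:**
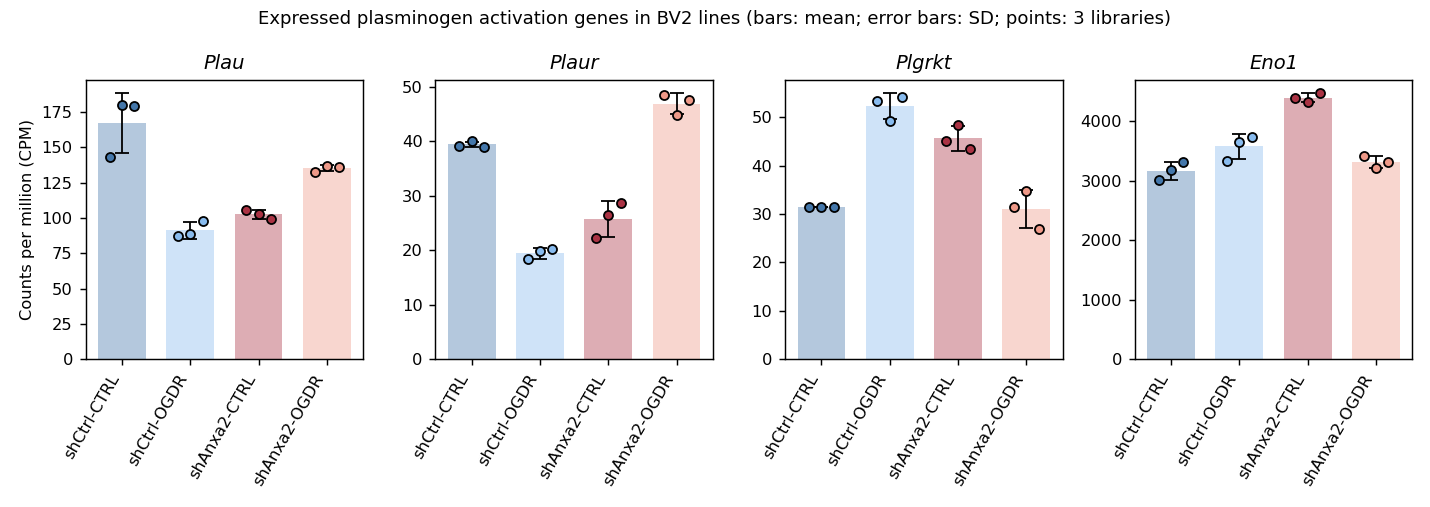
CPM of Plau, Plaur, Plgrkt and Eno1 in the 4 groups, with bars for the mean of 3 libraries, error bars for the SD and points for libraries. Plau and Plaur are lower and Plgrkt and Eno1 higher in shCtrl-OGDR than in shCtrl-CTRL, and all 4 move the other way in shAnxa2 cells.

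The first question was how OGD/R changed the system in control cells. Urokinase and its receptor fell, and the plasminogen receptors among the members, Plgrkt and Eno1, rose. Of 5 other plasminogen receptors tested, 2 were higher and 3 lower. Plau stood at 143, 180 and 179 CPM in shCtrl-CTRL and at 87.2, 88.7 and 98.1 CPM in shCtrl-OGDR. All treated libraries lay below all untreated ones, and shCtrl-CTRL replicate 1 was the lowest of its group. Plau fell by 0.88 ± 0.07 (SE) on the log2 scale, a loss of 45.6% (edgeR quasi-likelihood test, Benjamini-Hochberg adjusted p = 3.47e-11). Plaur went from 39.2, 40.0 and 39.0 CPM to 18.3, 19.9 and 20.2 CPM, with a wide gap between the groups. It fell by 1.02 ± 0.08 on the log2 scale, or 2.03-fold (edgeR adjusted p = 4.87e-11). Plgrkt went from 31.42, 31.44 and 31.43 CPM to 53.4, 49.2 and 54.2 CPM. The shCtrl-CTRL libraries lay closer together than counting error alone would give, with an SD of 0.0138 CPM against a counting error of 1.10 CPM, so this SD understates the spread. Plgrkt rose by 0.73 ± 0.07 on the log2 scale, or 1.66-fold (edgeR adjusted p = 5.42e-09).

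Eno1 moved least in control cells. Its levels were 3013, 3183 and 3312 CPM in shCtrl-CTRL and 3338, 3659 and 3740 CPM in shCtrl-OGDR. The groups did not overlap, but the nearest libraries of each differed by less than the spread within a group. Eno1 rose by 0.18 ± 0.04 on the log2 scale, or 12.9% (edgeR adjusted p = 0.00114). All 4 expressed members thus passed the test, 2 higher and 2 lower, in a comparison where 63.4% of the 11626 genes tested passed, 32.4% higher and 31.0% lower. The median absolute log2 fold change was 0.80 over the 4 members and 0.30 over all genes tested. Because of how the members were chosen, this median and the like ones below are descriptions only. By absolute log2 fold change, Plaur ranked 786, Plau 1130, Plgrkt 1670 and Eno1 7974 of the genes tested.

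In shAnxa2 cells each of the 4 genes moved the other way after OGD/R, with treatment taken from the library names. Plau rose from 105, 103 and 99.5 CPM in shAnxa2-CTRL to 133, 137 and 136 CPM in shAnxa2-OGDR. The groups were far apart, and the gain was 0.40 ± 0.07 on the log2 scale, or 1.32-fold (edgeR adjusted p = 1.71e-05). Plaur rose from 22.3, 26.4 and 28.8 CPM to 48.5, 44.8 and 47.5 CPM. Its untreated libraries were the most spread of any group for this gene, with an SD of 3.30 CPM, and still lay well below the treated ones. The gain was 0.86 ± 0.08 on the log2 scale, or 1.81-fold (edgeR adjusted p = 1.83e-09). Plgrkt went from 45.0, 48.5 and 43.3 CPM to 31.4, 34.7 and 27.0 CPM, again without overlap. It fell by 0.55 ± 0.08 on the log2 scale, a loss of 31.7% (edgeR adjusted p = 1.44e-06). Eno1 went from 4395, 4333 and 4476 CPM to 3423, 3216 and 3323 CPM. It fell by 0.41 ± 0.04 on the log2 scale, a loss of 24.6% (edgeR adjusted p = 3.44e-08). Again 2 members were higher and 2 lower, where 55.0% of all genes tested passed, 28.2% higher and 26.8% lower. The median absolute log2 fold change was 0.48 over the 4 members and 0.24 over all genes.

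**Figure D2:**
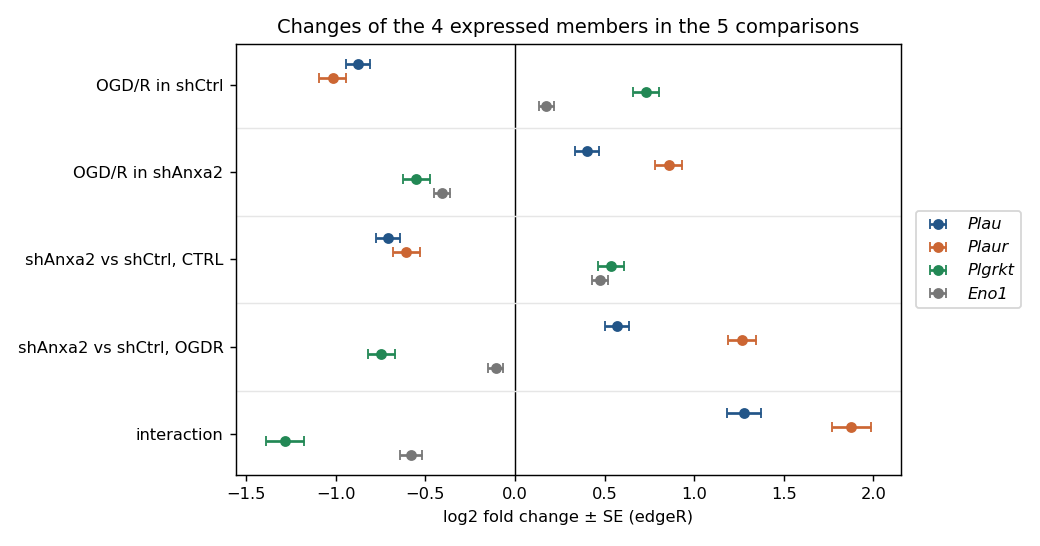
Log2 fold changes with SE from edgeR for the 4 expressed members in the 5 comparisons. Plau and Plaur lie on one side of 0 and Plgrkt and Eno1 on the other in every comparison, and the side switches between the lines.

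The difference between the responses of the lines was tested as the interaction of line and OGD/R, where a positive value means a more positive response in shAnxa2 cells. It was 1.88 ± 0.11 on the log2 scale for Plaur (edgeR adjusted p = 1.82e-13) and 1.28 ± 0.09 for Plau (edgeR adjusted p = 1.19e-11). It was -1.28 ± 0.11 for Plgrkt (edgeR adjusted p = 1e-10) and -0.58 ± 0.06 for Eno1 (edgeR adjusted p = 8.57e-09). All 4 passed, beside 70.0% of all genes tested, 34.9% higher and 35.1% lower. The switch of direction was not particular to these genes. Of 5239 genes that passed in both lines, 98.6% moved in opposite directions, as did the 4 members. Treatment was taken from the library names, so exchanged names within a line and a reversed response cannot be told apart. Plaur ranked 656, Plgrkt 1638, Plau 1647 and Eno1 5272 by absolute interaction among the 11626 genes. The median absolute value was 1.28 over the 4 members and 0.52 over all genes.

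**Figure D3:**
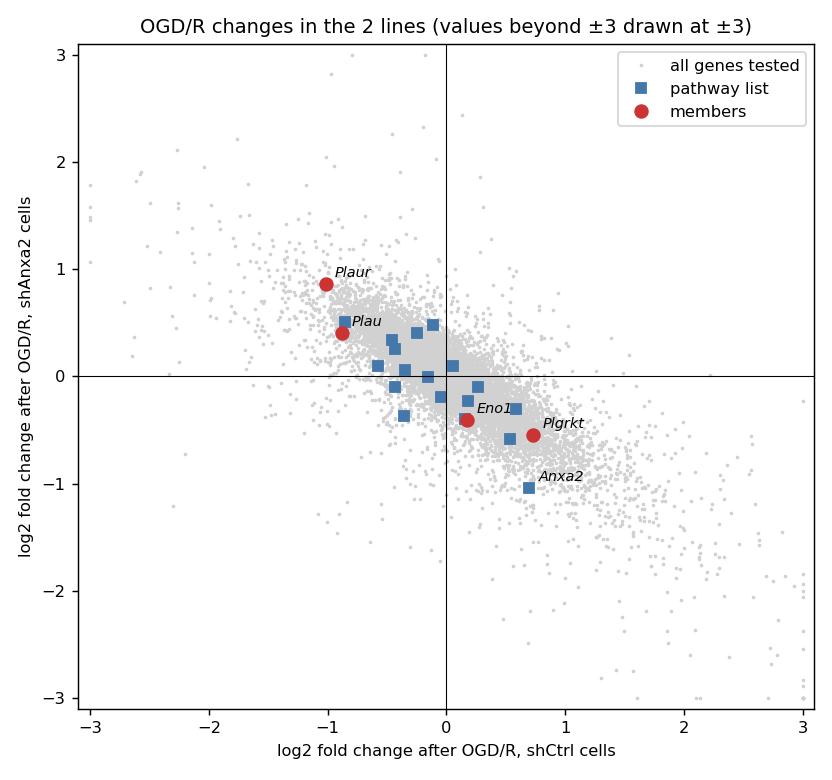
Log2 fold change after OGD/R in shCtrl cells (horizontal) against that in shAnxa2 cells (vertical) for all genes tested in grey, the pathway list as squares and the 4 expressed members as circles. Most genes lie in the upper left and lower right, the members among them, and the targeted gene Anxa2 lies in the lower right.

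Before any treatment, the lines already differed in the same genes. Plau was lower in shAnxa2-CTRL than in shCtrl-CTRL by 38.8%, with a log2 fold change of -0.71 ± 0.07 (edgeR adjusted p = 2.1e-09). Plaur was lower by 34.3%, at -0.61 ± 0.08 on the log2 scale (edgeR adjusted p = 2.85e-07). Plgrkt was 1.45-fold higher, at 0.54 ± 0.07 (edgeR adjusted p = 1.3e-06), and Eno1 1.39-fold higher, at 0.47 ± 0.04 (edgeR adjusted p = 1.84e-09). None of these 4 genes overlapped between the untreated lines, and neither did 63.6% of all genes tested. All 4 passed, 2 in each direction, beside 59.2% of all genes tested, 29.5% higher and 29.7% lower in shAnxa2-CTRL. These differences from shCtrl-CTRL had the direction that OGD/R had in control cells. Both comparisons share the shCtrl-CTRL libraries, so their likeness is no independent result.

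After OGD/R the order of the lines was turned around. Plaur was 2.41-fold higher in shAnxa2-OGDR than in shCtrl-OGDR, at 1.27 ± 0.08 on the log2 scale (edgeR adjusted p = 6.24e-13). Plau was 1.48-fold higher, at 0.57 ± 0.07 (edgeR adjusted p = 4.97e-08). Plgrkt was 40.4% lower, at -0.75 ± 0.07 (edgeR adjusted p = 3.7e-09). For Eno1 the ranges overlapped, 3216 to 3423 CPM against 3338 to 3740 CPM. Its log2 fold change was -0.11 ± 0.04, a difference of -7.22% (edgeR adjusted p = 0.0311), and the call was lost in 3 fits that each left out 1 library. The adjusted p became 0.110 without shCtrl-OGDR replicate 2, 0.166 without shCtrl-OGDR replicate 3 and 0.109 without shAnxa2-OGDR replicate 2. The 4 members passed with 2 in each direction, beside 67.9% of all genes tested, 33.8% higher and 34.2% lower in shAnxa2-OGDR.

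In an exact two-sided permutation test on mean log2(CPM + 0.1), with 3 libraries against 3, the smallest p that can be reached is 0.1. Of the 16 comparisons of 2 groups over the 4 members, 15 reached 0.1, those without overlap, and Eno1 after OGD/R gave 0.2. Lack of overlap was common over all genes tested: 68.0% did not overlap for OGD/R in shCtrl cells, 58.9% for OGD/R in shAnxa2 cells, 63.6% for the untreated lines and 69.9% for the treated lines. By group mean, Plau ran in the order shCtrl-OGDR, shAnxa2-CTRL, shAnxa2-OGDR and shCtrl-CTRL, at 91.3 ± 5.9, 103 ± 2.9, 135 ± 2.2 and 167 ± 21 CPM (SD, n = 3). No neighbours overlapped, although the gap between the lowest shAnxa2-CTRL and the highest shCtrl-OGDR library was narrow, at 99.5 against 98.1 CPM. Plaur ran in the order shCtrl-OGDR, shAnxa2-CTRL, shCtrl-CTRL and shAnxa2-OGDR, at 19.5 ± 1.0, 25.8 ± 3.3, 39.4 ± 0.50 and 46.9 ± 1.9 CPM, with no overlap of neighbours. shAnxa2-OGDR thus held the most Plaur of the 4 groups but less Plau than shCtrl-CTRL. Plgrkt was lowest in shAnxa2-OGDR, at 31.0 ± 3.9 CPM, and shCtrl-CTRL, at 31.4 CPM, and these neighbours overlapped. It was higher in shAnxa2-CTRL, at 45.6 ± 2.6 CPM, and highest in shCtrl-OGDR, at 52.3 ± 2.7 CPM. Eno1 rose through shCtrl-CTRL, shAnxa2-OGDR and shCtrl-OGDR, at 3169 ± 150, 3321 ± 103 and 3579 ± 213 CPM, where each overlapped its neighbour. shAnxa2-CTRL stood above them at 4402 ± 72 CPM.

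Eno1 has a retrotransposed copy in the mouse genome, listed as Eno1b, with which it may share reads. Eno1b had 27 to 63 counts per library, at most 0.0633% of the Eno1 counts. Summing both left each Eno1 call in place. Eno1b averaged 1.78 ± 0.12, 1.95 ± 0.37, 2.50 ± 0.15 and 1.64 ± 0.23 CPM (SD, n = 3) in shCtrl-CTRL, shCtrl-OGDR, shAnxa2-CTRL and shAnxa2-OGDR. Its highest group was that of Eno1.

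Ratios of counts within a library do not depend on the scaling between libraries, and were chosen after the values had been seen, as a description. There were 3.65 to 4.59 Plau reads per Plaur read in shCtrl-CTRL and 4.45 to 4.86 in shCtrl-OGDR. The ratio was 3.46 to 4.74 in shAnxa2-CTRL and 2.74 to 3.06 in shAnxa2-OGDR, the only group below the rest. Plgrkt reads per Plaur read were 0.786 to 0.805 in shCtrl-CTRL and 2.47 to 2.91 in shCtrl-OGDR. They were 1.51 to 2.02 in shAnxa2-CTRL and 0.567 to 0.775 in shAnxa2-OGDR, with no overlap among the 4 groups. The balance of Plgrkt to Plaur RNA was therefore highest after OGD/R in control cells and lowest after OGD/R in shAnxa2 cells.

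**Figure D4:**
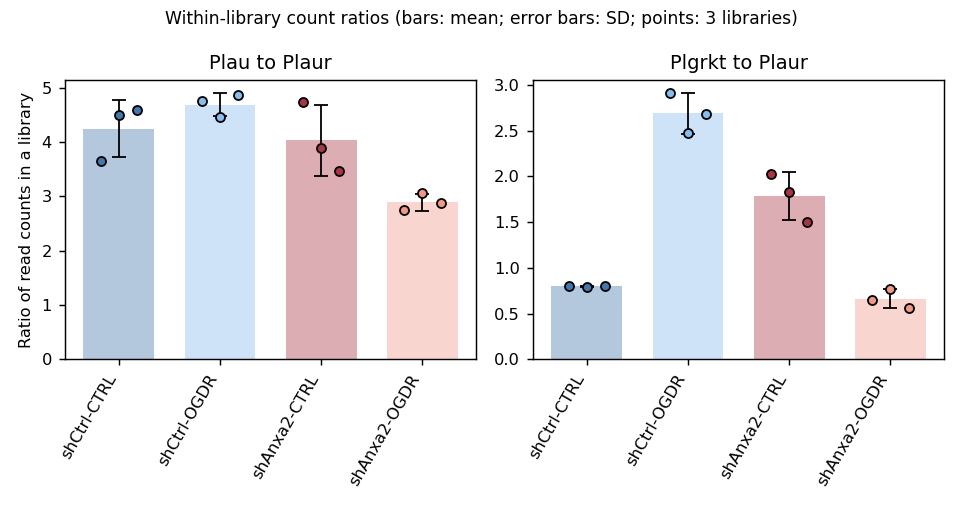
Ratios of read counts within each library for Plau to Plaur and Plgrkt to Plaur, with bars for the mean of 3 libraries and error bars for the SD. Plgrkt to Plaur is highest in shCtrl-OGDR, at 2.47 to 2.91, and lowest in shAnxa2-OGDR, at 0.567 to 0.775.

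Of 37 other genes of the system, 18 passed the filter on low counts and 7 had no count in any library. The 18 include the targeted gene Anxa2, which enters the counts and medians below. Its lower level in shAnxa2 cells was the aim of the shRNA and is no result about the system. In shCtrl cells OGD/R raised 5 and lowered 7 of them, so 12 of 18 passed, beside 63.4% of all genes tested. In shAnxa2 cells it raised 3 and lowered 5, so 8 of 18 passed, beside 55.0%. Between the untreated lines, shAnxa2 cells had 5 of them higher and 8 lower, 13 of 18 beside 59.2%. Between the treated lines they had 7 higher and 5 lower, 12 of 18 beside 67.9%. In the interaction, 5 were positive and 6 negative, 11 of 18 beside 70.0%. The median absolute log2 fold change of the 18 genes after OGD/R was 0.35 in the control line and 0.28 in the knockdown line, against 0.30 and 0.24 over all genes tested. It was 0.39 between the untreated lines and 0.26 between the treated lines, against 0.26 and 0.35, and 0.57 in the interaction, against 0.52. Of 6 genes that passed in both lines, 5 moved in opposite directions, beside 98.6% of all genes that passed in both. These 5 include Anxa2 and Serpini1, which passed narrowly (edgeR adjusted p = 0.0460 in shCtrl and 0.0450 in shAnxa2 cells). When 1 library was left out at a time, the Serpini1 call was lost in 6 of 12 fits for shCtrl cells. For shAnxa2 cells it was lost in 5 of 12. The exception was Itgam, the integrin chain CD11b. Itgam fell by 0.36 in shCtrl and by 0.37 in shAnxa2 cells on the log2 scale (edgeR adjusted p = 0.0154 and 0.0268). The Itgam call in shCtrl cells was lost without shCtrl-OGDR replicate 1 (edgeR adjusted p = 0.112). In shAnxa2 cells it was lost without shAnxa2-CTRL replicate 1 or 2 or shAnxa2-OGDR replicate 1 or 3 (edgeR adjusted p up to 0.203).

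Among the genes listed as inhibitors, 3 of 7 could be tested. Serpinb8, an intracellular serpin, was higher in shAnxa2 cells in both treatments, 1.69-fold when untreated and 1.52-fold after OGD/R (edgeR adjusted p = 1.19e-05 and 0.000199). Whether its product inhibits the plasminogen activators was not tested. Serpini1, which encodes neuroserpin, an inhibitor of tissue-type activator, averaged 1.68 to 2.56 CPM and had an interaction of -1.12 ± 0.33 (edgeR adjusted p = 0.00474).

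Among the plasminogen receptors other than the members, 5 of 6 could be tested. S100a10, the partner of annexin A2 that carries the plasminogen-binding lysine, averaged 60.6 ± 3.0 CPM in shCtrl-CTRL and 44.9 ± 5.2 CPM in shCtrl-OGDR (SD, n = 3). In the knockdown line it averaged 46.3 ± 6.0 CPM untreated and 43.1 ± 2.6 CPM treated. It was lower in shAnxa2-CTRL than in shCtrl-CTRL by 23.7% (edgeR adjusted p = 0.000244), while after OGD/R the lines differed by -3.86% (edgeR adjusted p = 0.564). S100a10 reads per Anxa2 read were 0.324 to 0.380 in shCtrl-CTRL and 0.977 to 1.52 in shAnxa2-CTRL. After OGD/R they were 0.155 to 0.165 in shCtrl and 1.95 to 2.47 in shAnxa2 cells. Anxa2 is the targeted gene, so the higher ratios in shAnxa2 cells restate its knockdown. Per kilobase of exon, S100a10 averaged 50.02 CPM per kb against 46.0 for Anxa2 in shCtrl-CTRL and 38.2 against 10.8 in shAnxa2-CTRL. Itgb2, the integrin chain that pairs with CD11b, had an interaction of -0.41 ± 0.07 (edgeR adjusted p = 2.64e-05). Hmgb1, a nuclear protein that also binds plasminogen at the surface, had an interaction of 0.41 ± 0.09 (edgeR adjusted p = 0.000303).

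Among partners and clearance receptors, 5 of 10 could be tested. Lrp1, which internalizes urokinase-inhibitor complexes together with the urokinase receptor, followed Plau and Plaur in the sign of its OGD/R change in both lines. Between the treated lines it did not, at -0.04 ± 0.08 on the log2 scale (edgeR adjusted p = 0.671). It fell by 0.25 ± 0.08 on the log2 scale in shCtrl cells (edgeR adjusted p = 0.0103) and rose by 0.41 ± 0.08 in shAnxa2 cells (edgeR adjusted p = 0.000176). In shAnxa2-OGDR it stood at 280, 283 and 383 CPM, and without replicate 3, the high library, the rise was 0.24 (edgeR adjusted p = 0.0014). The fall in shCtrl cells lost its call without shCtrl-CTRL replicate 2 or shCtrl-OGDR replicate 3 (edgeR adjusted p = 0.0508 and 0.0631). Itgav, the vitronectin-binding integrin chain that works with the urokinase receptor, fell from 176 ± 6.1 to 118 ± 5.9 CPM in shCtrl cells (SD, n = 3; edgeR adjusted p = 5.72e-10). Its change in shAnxa2 cells was 0.09 ± 0.05 on the log2 scale (edgeR adjusted p = 0.122), and the interaction was 0.67 ± 0.07 (edgeR adjusted p = 1.13e-08). Of the upstream proteases and the zymogen, 2 of 6 could be tested, and St14, which encodes matriptase, a protease that can activate pro-urokinase, had an interaction of -0.89 ± 0.23 (edgeR adjusted p = 0.00161).

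Of 8 genes for plasmin substrates, 3 could be tested, and 4, with all 3 fibrinogen chains among them, had no count. Tgfb1, whose latent product plasmin can release, averaged 42.6 ± 3.3 CPM in shCtrl-CTRL and 31.0 ± 1.4 CPM in shCtrl-OGDR (SD, n = 3). In the knockdown line it averaged 28.2 ± 0.56 CPM untreated and 35.7 ± 4.5 CPM treated. Its interaction of 0.80 ± 0.11 was the largest positive one of the list that passed the test (edgeR adjusted p = 1.03e-06). Hgf, a growth factor precursor cleaved by plasminogen activators, had an interaction of -0.55 ± 0.22 (edgeR adjusted p = 0.031). That call was lost in 6 of 12 fits that each left out 1 library: shCtrl-CTRL replicate 1, shCtrl-OGDR replicate 1, shAnxa2-CTRL replicate 1 or 3, or shAnxa2-OGDR replicate 2 or 3 (edgeR adjusted p up to 0.110).

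**Figure D5:**
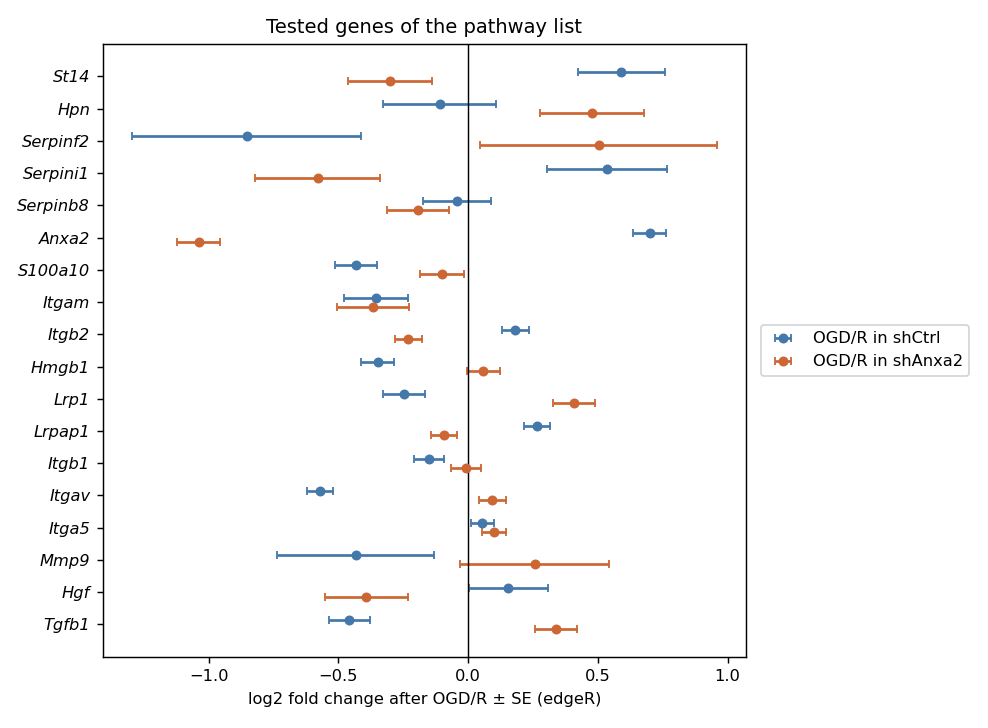
Log2 fold changes after OGD/R with SE from edgeR for the 18 tested genes of the pathway list, in shCtrl cells (blue) and shAnxa2 cells (orange). Most genes lie on opposite sides of 0 in the lines, and Itgam lies at -0.36 and -0.37.

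Across the 12 libraries, the levels of Plaur and Plgrkt on the log2(CPM + 0.1) scale had a Pearson r of -0.95, and Plau and Plaur one of 0.83. These values largely restate the 4 group means, since libraries of a group share treatment and line. Among 10740 other genes of at least 1 CPM on average, the 3 closest in pattern to Plau were Pcna (r = 0.98), Dhx8 (0.97) and Ywhaz (0.97). Those closest to Plaur were Ruvbl1, Phf23 and Lfng, each at 0.99. Those closest to Plgrkt were Arhgap18 (0.99), Ankrd24 (0.99) and Fbxl4 (0.98), and to Eno1 Ap3s1 (0.98), Tes (0.97) and Fdft1 (0.96).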

How the data were processed

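RNA of 12 BV2 libraries in 4 groups of 3 was analysed. The authors deposited raw read counts per gene for 21834 protein-coding genes beside normalized counts, and the raw counts were used. The submitters' processing notes name HISAT2 2.0.4 and mm39, and the study's methods, written for hippocampi, name other software. Strandedness of the counting is not given in the sources used here. The 12 per-sample columns of normalized counts were not used. Counts were scaled with TMM and tested in edgeR 4.0.16 (R 4.3.3) with 1 quasi-likelihood model over the 4 groups, for the 11626 genes that reached 0.5 CPM in 3 or more libraries, with Benjamini-Hochberg adjustment over all of them and a threshold of 0.05. SE is the absolute log2 fold change divided by the square root of F. CPM values use TMM library sizes of the tested genes. On simulated counts the steps recovered most of the changes put into 1 group. Those changes were larger than any of Eno1 and were put into genes above the filter. Recovery of smaller changes, or of changes in genes with few counts, was not tested.

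Totals had a median of 24531756.5 counts, and 14 genes without a name were kept in the totals. Counts of replicates differed by a chi-square of 4.00 to 13.3 per gene, more than counting error. The common biological coefficient of variation in edgeR was 5.35%. These values cannot tell separate cultures from repeat libraries of 1 culture, and each library was kept as a replicate as the study's methods describe. Exon lengths came from GENCODE M21 (GRCm38), matched by Ensembl identifier for 99.9% of tested genes, and start regions from RefSeq. The members and lists were chosen with earlier results of these data known. Named genes are the 7 members, Anxa2, Eno1b, S100a10, Lrp1 and Plg, pathway genes with the largest interactions (at most 5 per direction), and for each expressed member the 3 genes with the closest pattern. A further gene of the pathway list is not reported here and enters none of its counts. Itgam and Serpinb8 were named after their values were seen. Alternatives were DESeq2 1.42.0, limma 3.58.1 (voom, or log2(CPM + 1)), other size factors and filters, the replicate block, fits of 2 groups, a fold limit, summed Eno1 copies and leaving out each library. Python 3.11.15, numpy 2.4.6, pandas 2.3.3, scipy 1.17.1 and matplotlib 3.10.9 did the rest.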

Additional observations from a re-analysis of the deposited data

Results flagged for a closer look

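The response to OGD/R differed between shCtrl and shAnxa2 cells by the edgeR interaction test, on the log2 scale as the response in shAnxa2 minus that in shCtrl cells, for the 4 expressed members and for 11 further genes named in the report or by the same rule. Among the members the value was 1.28 for Plau, 1.88 for Plaur, -1.28 for Plgrkt and -0.58 for Eno1. Among receptors, partners and substrates it was -1.74 for Anxa2, 0.33 for S100a10, 0.41 for Hmgb1, -0.41 for Itgb2, 0.65 for Lrp1, 0.67 for Itgav, 0.80 for Tgfb1 and -0.55 for Hgf. Among serpins and proteases it was -1.12 for Serpini1 and -0.89 for St14, and the Eno1 copy Eno1b had -0.76 (edgeR adjusted p = 0.0276). Such a difference was the rule in these libraries, since 70.0% of all genes tested passed the interaction test. The S100a10 call was lost without shCtrl-OGDR replicate 1, at 0.22 (edgeR adjusted p = 0.0802). The Eno1b call was lost without shCtrl-CTRL replicate 2, shCtrl-OGDR replicate 1 or 2, shAnxa2-CTRL replicate 2 or shAnxa2-OGDR replicate 1 (edgeR adjusted p up to 0.0736), and that of Hgf as given in the report. What lies behind these differences was not tested. No member's values in a group could be screened for a single deviating library, since each group holds 3.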

How the results depend on the processing

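All 4 expressed members were called in each of the 5 comparisons, and no alternative that was run turned a direction. With a limit of 1 on the absolute log2 fold change added, the count of members called became 1 for OGD/R in shCtrl cells, 0 for OGD/R in shAnxa2 cells, 0 for the untreated lines, 1 for the lines after OGD/R and 3 for the interaction. The Eno1 difference between the lines after OGD/R lost its call in limma on log2(CPM + 1), at -0.11 with an adjusted p of 0.106 (range over its alternatives 0.00168 to 0.166). It also lost it in the 3 fits named in the report that leave out 1 library, where its lowest and highest values over all 12 such fits were -0.17 and -0.08. Fewer libraries enter those fits. Under the alternatives, 417 values of single members kept their direction and call, and these 4 did not. With the replicate block the Plaur interaction was 1.88 and the Eno1 difference after OGD/R -0.11 (edgeR adjusted p = 0.0257), and the block changed no call. Same-numbered libraries correlated at -0.0464 to 0.135 in their deviations from group means, and 5 of 12 matched best with their own number, so the numbers were not taken to pair the libraries. Leaving out each library was also run, as a choice made after the data were seen, for 13 named genes that are no members. Of 780 values, 719 kept their side of the threshold, 55 lost a call and 6 gained one. Upper-quartile scaling shifted the median of all genes by at most 0.072 (log2). Depth limits Plat, Serpinb2 and Serpine2, for which no change could be measured. RNA levels do not give protease activity or surface protein. The labels and methods name no batch, and a batch aligned with the groups cannot be told apart.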
